A study of Mus musculus with 48 samples.

Results

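Dorsal skin of mice given the DGAT1 inhibitor Cpd6 by mouth was compared with that of vehicle-treated mice in the second of the compound studies, named Study 2. Every Study 2 array labelled vehicle or compound 6 was taken, which gave 8 of the 48 arrays of the series, 4 mice per group with 1 array per mouse. All were C57BL/6 mice with a labelled age of 8 weeks, and the methods describe them as male and diet-induced obese, on a chow with 60% of its kcal from fat. Both groups were dosed orally for 14 days, the controls with methylcellulose alone and the others with Cpd6 at 30 mg/kg, the dose the methods give where they name no other. Another group of 4 mice in the same study received Cpd2, an inhibitor of another structural class. A separate set of 4 vehicle and 4 Cpd6 mice was profiled in Study 4 with the same labels for strain, age, tissue and time. Study 4 also held 4 mice given the DGAT1 inhibitor Cpd18, which entered its fit only through the estimate of the spread. Every mouse, controls included, was therefore obese and on the high-fat diet, and lean mice were not compared here. A biopsy of whole skin holds epidermis, sebaceous glands, hair follicles, dermis, fat and muscle, so a lower level can come from fewer cells of a type or from less RNA per cell, which cannot be told apart. Levels are given as the base 2 logarithm of the array intensity, so that a difference of 1 is a 2-fold change, and a probeset (the probes that stand for 1 transcript) was called when limma gave an adjusted p under 0.05 over all 28789 probesets tested.

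DGAT1 joins a fatty acid to diacylglycerol, the last step of triglyceride synthesis, and shares that reaction with the unrelated enzyme DGAT2. In skin it also esterifies retinol and makes wax esters. Sebaceous glands, which sit on the hair follicle, fill with triglycerides, wax esters and other lipids and release them as sebum when their cells burst, and the glands also express many enzymes of fatty acid, steroid and retinoid metabolism. Cpd6 belongs to the compounds that the study scored as causing atrophy of these glands, and the histology itself was not analysed here.

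Serpinb6d and Cyp2b23 had the largest decreases and the chemokine Ccl1 the largest increase, while the lipid enzyme Scd3 and the P450 enzyme Cyp1a1 stand for pathways described below and were not chosen by rank. The 250 bases before the RefSeq start of each gene are shown, because these 5 genes recur in what follows, 4 of them lower and Ccl1 higher after Cpd6. Coordinates are those of GRCm38.p6, the sequence runs 5′ to 3′ along the gene, and capitals mark 3 motifs that were searched on both strands: AGGTCA (the core hexamer bound by many nuclear receptors), GCGTG (the core bound by the aryl hydrocarbon receptor) and TATAAA (the TATA box).
Serpinb6d, chr13:33661155-33661404, + strand: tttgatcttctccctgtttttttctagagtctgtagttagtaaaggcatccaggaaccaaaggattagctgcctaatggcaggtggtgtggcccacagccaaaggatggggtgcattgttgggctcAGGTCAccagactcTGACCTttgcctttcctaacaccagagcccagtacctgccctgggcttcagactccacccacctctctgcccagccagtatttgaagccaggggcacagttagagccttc
Cyp2b23, chr7:26686431-26686680, - strand: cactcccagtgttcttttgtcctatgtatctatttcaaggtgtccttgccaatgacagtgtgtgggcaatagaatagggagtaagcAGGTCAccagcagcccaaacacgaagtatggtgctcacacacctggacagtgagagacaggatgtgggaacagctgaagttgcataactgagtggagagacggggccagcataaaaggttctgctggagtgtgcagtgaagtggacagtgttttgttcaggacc
Cyp1a1, chr9:57697363-57697612, + strand: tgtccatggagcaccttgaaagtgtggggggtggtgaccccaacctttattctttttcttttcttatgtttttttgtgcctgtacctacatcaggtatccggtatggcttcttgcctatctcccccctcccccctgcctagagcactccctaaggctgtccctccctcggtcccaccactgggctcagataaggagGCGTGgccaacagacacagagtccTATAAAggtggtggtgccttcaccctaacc
Scd3, chr19:44203038-44203287, + strand: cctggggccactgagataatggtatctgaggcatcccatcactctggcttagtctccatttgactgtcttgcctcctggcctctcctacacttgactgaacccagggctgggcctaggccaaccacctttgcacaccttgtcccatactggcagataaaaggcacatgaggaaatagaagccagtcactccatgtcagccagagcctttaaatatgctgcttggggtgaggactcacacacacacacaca
Ccl1, chr11:82179813-82180062, - strand: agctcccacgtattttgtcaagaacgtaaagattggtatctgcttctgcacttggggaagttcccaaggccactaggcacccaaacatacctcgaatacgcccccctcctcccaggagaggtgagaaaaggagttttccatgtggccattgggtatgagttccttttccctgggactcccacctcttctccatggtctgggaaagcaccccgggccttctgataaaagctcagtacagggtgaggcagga
In Serpinb6d, whose first of 2 listed starts is shown, AGGTCA begins 124 bases before the start and its reverse complement 110 bases before it. Cyp2b23 has AGGTCA at 164 bases before the start, and Cyp1a1 has GCGTG at 54 and TATAAA at 30 bases. No match was found in these windows of Scd3 and Ccl1. Over all promoters of that length AGGTCA was present in 14% of 32851, GCGTG in 28.2% and TATAAA in 12.4%. Among 63 promoters of 57 genes called lower the shares were 22.2%, 34.9% and 11.1%, and among 12 promoters of 12 genes called higher 8.33%, 16.7% and 16.7%. The matches describe the letters alone, and these shares were not tested.

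More probesets were called lower than higher after Cpd6 at the adjusted threshold. Of 28789 probesets 109 were called (0.379%), 83 lower (0.288%) and 26 higher (0.0903%), and the difference was larger among those that fell, with a median log2 fold change of -1.27 against 0.70 among those that rose. Over all probesets the median was 0.02. The split turned at the threshold of the study's methods, an unadjusted p of 0.01 with a 1.2-fold change, where the methods' t-test gave 434 higher and 294 lower. More than 4-fold changes were found for 20 lower probesets and for 1 higher, Ccl1, and more than 2-fold changes for 55 lower and 5 higher. In all 109 the 4 Cpd6 mice lay on 1 side of the 4 vehicle mice, as they did for 6.83% of all probesets tested. A single gene name was attached to 94 of the called probesets, several names to 1 and none to 14. With 1 probeset for each of 15320 named genes 88 were called (0.574%), 21 higher (0.137%) and 67 lower (0.437%), and these are the probesets that the gene lists below count. Limma called 598 probesets without vehicle mouse 1 and 39 without vehicle mouse 3, and between 49 and 124 without any other of the 8 mice. In all 8 of these smaller sets 36 of the lower and 2 of the higher probesets were called again, and all 109 kept their sign.

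The mice differed in the level of hair genes. A list of 13 genes of the growing hair follicle, such as the inner root sheath keratin Krt25 and the hair shaft keratin Krt33a, had a mean log2 level of 4.28, 8.42, 9.95 and 10.96 in vehicle mice 1 to 4 and of 3.81, 3.98, 5.83 and 4.09 in Cpd6 mice 1 to 4. Vehicle mouse 1 thus lay within the range of the Cpd6 mice and the other 3 vehicle mice above it. The 34 keratin-associated proteins, which fill the hair shaft, followed with 3.45, 6.86, 9.21 and 10.51 against 3.04, 3.15, 5.01 and 3.02, and so did 5 melanocyte genes with 5.32, 6.96, 7.73 and 8.95 against 5.42, 5.17, 5.07 and 5.58. No gene of the first 2 lists was called, though their medians were -4.71 and -4.26, and the vehicle mice were spread widely. Krt25, for example, was at 5.59 in vehicle mouse 1 and between 11.73 and 12.98 in the others, and at 4.96, 4.54, 9.04 and 4.29 with Cpd6 (adjusted p = 0.218). The same lists were as uneven in Study 4, where the hair list ran from 3.95 to 10.43 in vehicle mice and from 3.84 to 5.9 in Cpd6 mice.

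**Figure D1:**
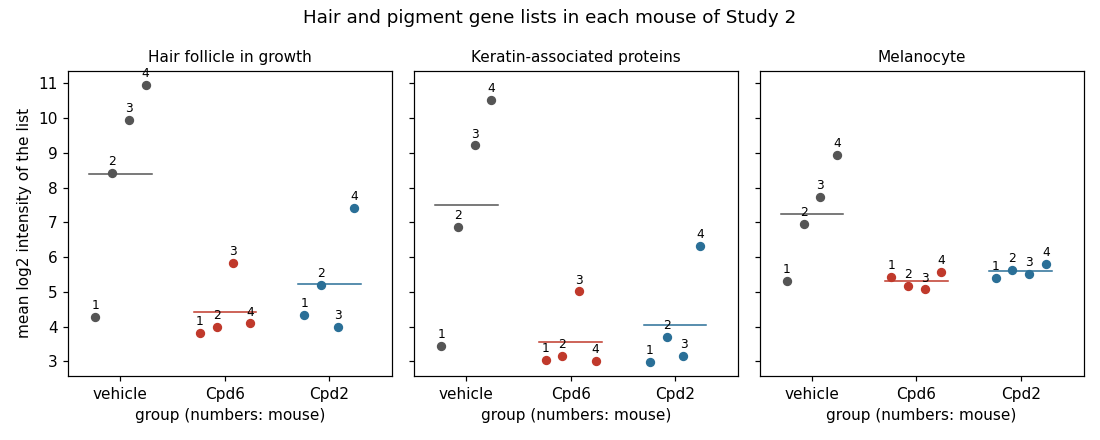
Mean log2 intensity of the genes of each list in every Study 2 mouse, numbered 1 to 4 within its group, with the group mean as a line. Vehicle mouse 1 lies at 4.28 for the hair list, near the Cpd6 mice, and vehicle mice 2 to 4 at 8.42 to 10.96.

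Vehicle mouse 1, with hair gene levels like those of the treated mice, was therefore set against them for every called probeset. The groups did not overlap in any of the 109, so vehicle mouse 1 had to stand beyond all 4 Cpd6 mice in each. Its distance from the Cpd6 mean was 104% (median) of the distance between the group means in the 83 probesets called lower. In the 26 called higher that share was 73% (median). Vehicle mouse 1 was the control nearest to the Cpd6 mice in 12 of the 83 and in 16 of the 26. These counts use the mice that made the calls and are a description. With the level of the hair list as a covariate in the fit, 32 of the 83 lower and 1 of the 26 higher probesets were still called by limma, and all 109 kept their sign. The hair level itself differed by group (mean 8.4 with vehicle and 4.43 with Cpd6), so this covariate lowers the precision of the Cpd6 estimate. A lost call can thus come from a smaller estimate, from lower precision or from both. Defb14 went from 1.41 to 1.39 and Cxcl16 from 0.70 to 0.45, and neither was called with the covariate.

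The target of the drug did not change at the RNA level by a detectable amount. Dgat1 read 10.74, 10.89, 10.74 and 10.42 in the vehicle mice and 10.31, 10.56, 10.7 and 10.57 in the Cpd6 mice, so the groups overlapped, with a log2 difference of -0.16 ± 0.11 (SE, n = 4 mice per group, limma adjusted p = 0.629). Dgat2, the other enzyme of this step, differed by 0.16 ± 0.16 (adjusted p = 0.768). None of 16 measured genes of triglyceride synthesis was called, and their median was 0.04. Of 12 acyltransferases of the DGAT2 and MBOAT families 1 fell, the wax synthase Awat1, at 10.4, 9.98, 10.66 and 9.93 with vehicle and 8.86, 9.68, 8.85 and 9.55 with Cpd6 (-1.0 ± 0.20, adjusted p = 0.04997). That call sat at the threshold and was lost without Cpd6 mouse 1, 3 or 4 or vehicle mouse 2 or 3 (adjusted p up to 0.192). Its relative Awat2 differed by -0.70 (adjusted p = 0.208).

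Genes of fatty acid desaturation and elongation fell in part. Scd3, a stearoyl-CoA desaturase of the sebaceous gland, was at 10.07, 10.07, 10.2 and 9.66 in the vehicle mice and at 7.06, 7.94, 7.63 and 7.9 in the Cpd6 mice. The gap between the groups was wide against the spread within them, a 5.18-fold decrease (log2 -2.37 ± 0.22, limma adjusted p = 5.53e-05), and a second probeset of the gene fell 6.16-fold. Scd1, the abundant desaturase of skin, was at 12.83 to 13 with vehicle and 12.83 to 13.15 with Cpd6, a difference of 0.03 ± 0.07. Elovl5, which elongates polyunsaturated fatty acids, went from 12.67, 12.67, 12.77 and 12.48 to 11.85, 12.05, 11.83 and 12.13, a small but even decrease of 0.68 (SE 0.08, adjusted p = 0.00047). Of 8 desaturases 1 was called and of 11 elongases 1, and 10 of the 11 elongases were below 0, among them Elovl3 (-0.86, adjusted p = 0.0766). Fads1, the delta-5 desaturase, differed by -0.71 (adjusted p = 0.0612). The 8 desaturases ran from -2.37 to 1.42, with 6 below 0 and 2 above it, and none was called higher.

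Pnpla5, a lipase of lipid droplets, fell 3.86-fold, from 9.9, 9.65, 10.02 and 9.53 to 7.49, 8.37, 7.37 and 8.07 (log2 -1.95 ± 0.21, limma adjusted p = 0.000352). It was the 1 called gene among 18 of droplets and lipolysis. Fabp5, the epidermal fatty acid binding protein, was at 9.94, 9.76, 10.13 and 9.81 with vehicle and 8.94, 9.39, 9.05 and 9.2 with Cpd6 (-0.76 ± 0.13, adjusted p = 0.0158), and this call was lost without Cpd6 mouse 1 or 3 or vehicle mouse 3 (adjusted p up to 0.0857). Of 17 sebaceous gland markers 4 fell (Aox4, Scd3, Fabp5 and Awat1), none rose, and the median of the list was -0.08. The list moved unevenly. Scd1, the lipid droplet coat gene Plin2 (0.03), the regulator Pparg (-0.04) and Mgst1 (-0.06) lay near their vehicle level, while the list mean per mouse was 9.47, 9.27, 9.37 and 9.11 against 8.64, 9.03, 8.7 and 8.97. No gene was called among 18 of fatty acid synthesis and activation (median -0.01), 19 of cholesterol synthesis (-0.15), 15 of mitochondrial fatty acid oxidation (0.03) or 12 targets of PPAR and LXR (0.04).

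Peroxisomes shorten branched and very long fatty acids, and 3 of 25 measured genes of peroxisomal lipid metabolism fell. Acox2, an oxidase of branched acyl-CoA and bile acid intermediates, was at 8.81, 8.43, 9.46 and 8.46 in vehicle mice and 6.82, 7.37, 6.59 and 7.25 in Cpd6 mice. It fell 3.44-fold (log2 -1.78 ± 0.22, limma adjusted p = 0.000918). Acox3, its relative for methyl-branched chains, was at 10.54, 10.24, 10.29 and 9.79 and then at 8.98, 9.44, 9.05 and 9.3 (-1.02 ± 0.15, adjusted p = 0.00811). The lowest vehicle mouse still stood above the highest Cpd6 mouse in both, and both calls held without any single mouse. The 2 other probesets of Acox3, with lower intensity, were not called (-0.40 and -0.49). Crat, which moves short acyl groups between CoA and carnitine, differed by -0.94 ± 0.17 (adjusted p = 0.0232), lost without Cpd6 mouse 1, 2 or 3 or vehicle mouse 2 or 3 (adjusted p up to 0.0913). Outside the list, the acyl-CoA thioesterase Acot1 fell 2.31-fold (10.26, 9.95, 10.1 and 10.03 against 8.49, 9.36, 8.75 and 8.9, adjusted p = 0.00199) and the peroxisomal membrane protein Pxmp4 1.91-fold (11.08 to 11.4 against 10.16 to 10.47, adjusted p = 0.000517).

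Ceramide synthases moved in both directions. Cers5, which makes ceramides with palmitoyl chains, was at 11.15, 10.8, 11.21 and 10.63 with vehicle and at 9.91, 9.87, 9.69 and 9.8 with Cpd6. The Cpd6 mice were close together and all below the controls, a 2.19-fold decrease (log2 -1.13 ± 0.12, limma adjusted p = 0.00024). Cers3, which makes the ultra-long ceramides of the epidermal barrier, was higher, at 8.99, 9.06, 8.78 and 9.07 and then at 9.55, 9.83, 9.6 and 9.46 (0.64 ± 0.11, adjusted p = 0.0203). Sgpl1, the lyase that ends sphingolipid breakdown, fell by 0.45 (adjusted p = 0.0358), while Cers4 was called in 1 of its 3 probesets (-0.79) and not in the brightest (-0.52, adjusted p = 0.172). A second, dimmer probeset of Sgpl1 was not called (-0.15, adjusted p = 0.876). The calls of Cers3, Sgpl1 and Cers4 were lost in several of the sets with 1 mouse left out, among them those without Cpd6 mouse 1, Cpd6 mouse 3 or vehicle mouse 3 (adjusted p up to 0.104, 0.161 and 0.142). Of 25 sphingolipid genes 1 rose and 2 fell, and the median was 0.10.

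Enzymes of steroid and retinoid metabolism were among the deepest decreases. Akr1c21, a hydroxysteroid dehydrogenase, was at 6.78, 6.02, 6.97 and 7.01 in vehicle mice and 3.16, 3.83, 2.94 and 2.89 in Cpd6 mice, close to the filter level of 2.93. It fell 11.2-fold (log2 -3.49 ± 0.27, limma adjusted p = 1.29e-05) and was the 1 called gene of 8 aldo-keto reductases. Aox4, an aldehyde oxidase that turns retinaldehyde into retinoic acid, went from 7.05, 6.67, 7.62 and 6.83 to 3.88, 4.84, 3.46 and 4.28, a 7.59-fold decrease (adjusted p = 0.000382). It was the 1 called of 24 retinoid genes, whose median was -0.10. Hsd17b2, which inactivates estradiol and testosterone, was at 8.71, 8.46, 8.7 and 8.76 and then at 6.99, 7.73, 6.69 and 7.65 (-1.40 ± 0.22, adjusted p = 0.0107), and was missed without vehicle mouse 3 (adjusted p = 0.0554). Hsd3b6, of the family that oxidises steroid hydroxyl groups, differed by -1.13 ± 0.21 (adjusted p = 0.0316) and was lost without Cpd6 mouse 1 or 3 or vehicle mouse 2, 3 or 4 (adjusted p up to 0.119). In both steroid enzymes the SD was larger among Cpd6 mice (0.50 and 0.53) than among vehicle mice (0.14 and 0.05). Of 24 measured steroid genes these 2 fell and none rose, with a median of -0.02.

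Cytochrome P450 enzymes hold the best measured decrease of all. Cyp2b23 was at 8.81, 9.0, 9.08 and 8.6 with vehicle and at 4.45, 4.87, 4.94 and 4.81 with Cpd6. The groups stood far apart against their SD of 0.21 and 0.22, a 17.2-fold decrease (log2 -4.10 ± 0.19, limma adjusted p = 3.99e-08). Cyp2j12, of the epoxygenase subfamily, fell 4.66-fold, from 7.34, 7.11, 7.38 and 6.78 to 4.75, 5.46, 4.12 and 5.4 (adjusted p = 0.000598). Cyp1a1, the classical target of the aryl hydrocarbon receptor, fell 4.02-fold, from 7.05, 6.89, 7.29 and 6.61 to 4.71, 5.45, 4.41 and 5.24 (adjusted p = 0.000517). All 3 decreases held without any single mouse. Most other targets of that receptor did not share the decrease of Cyp1a1. Of 8 measured, Cyp1a1 included, 6 were above 0, and Cyp1b1 was also below it (-0.33, adjusted p = 0.227). Ahrr differed by 0.55 (adjusted p = 0.323) and the quinone reductase Nqo1 was higher by 0.48 (adjusted p = 0.036).

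A pair of P450 genes rose. Cyp2g1 was at 2.31, 2.03, 2.37 and 2.2 in vehicle mice, below the filter level of 2.93, and at 2.99, 4.37, 3.9 and 5.42 in Cpd6 mice (fitted log2 difference 1.94 ± 0.39, limma adjusted p = 0.0443), at least 2.37-fold higher against that level. Cyp3a13 went from 6.06, 5.92, 5.41 and 5.38 to 6.98, 7.11, 6.41 and 6.8 (1.13 ± 0.20, adjusted p = 0.0227), and its second, dimmer probeset showed 1.06 (adjusted p = 0.11). Neither call was firm. Cyp2g1 was lost without Cpd6 mouse 2, 3 or 4 or vehicle mouse 2, 3 or 4 (adjusted p up to 0.136), Cyp3a13 without Cpd6 mouse 1, 2 or 4 or vehicle mouse 3 or 4 (up to 0.111), and Nqo1 in every set except that without vehicle mouse 1 (up to 0.136). Of 32 measured genes of P450 families 1 to 4, 2 rose and 3 fell and the median was -0.02. Among other enzymes of this kind, the carboxylesterase Ces4a fell 4.21-fold (10.34, 10.24, 10.71 and 9.98 against 7.89, 8.68, 7.79 and 8.61, adjusted p = 0.00019) and Aadacl4, a deacetylase-like hydrolase, 7.57-fold (8.55, 8.05, 8.62 and 7.91 against 4.73, 5.59, 5.25 and 5.87, adjusted p = 0.000137).

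**Figure D2:**
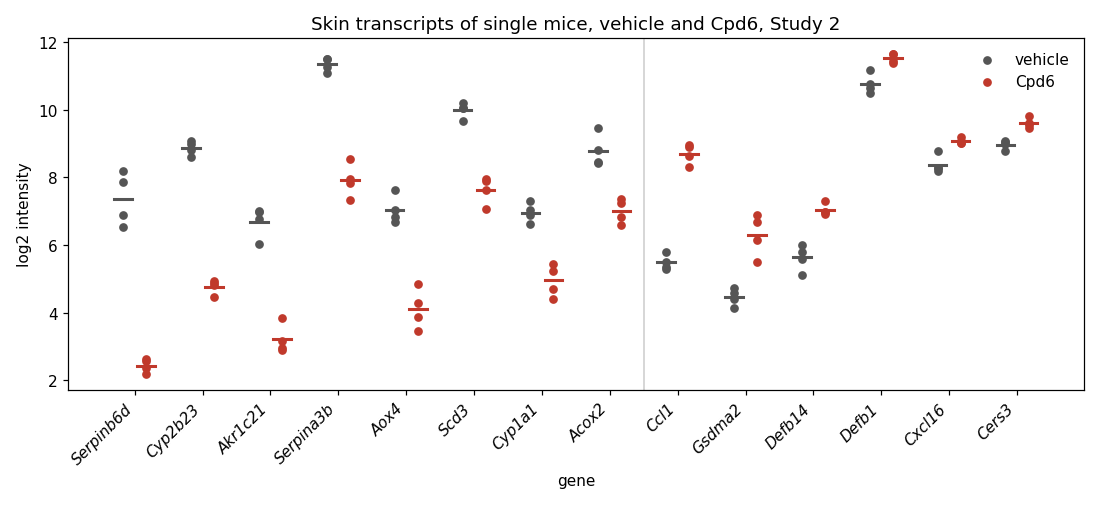
Log2 intensity of 14 genes in each vehicle (grey) and Cpd6 (red) mouse of Study 2, with the mean of 4 mice as a bar, and the line parts genes called lower from genes called higher. The groups do not overlap in any of the 14, and the widest gap is that of Serpinb6d, at 6.54 to 8.18 against 2.18 to 2.63.

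Serpins, which inhibit proteases, gave the deepest decrease. Serpinb6d was at 7.86, 6.54, 8.18 and 6.88 in vehicle mice and at 2.18, 2.35, 2.56 and 2.63 in Cpd6 mice, below the filter level of 2.93 in all 4. It was at least 21.7-fold lower when that level stands in for the Cpd6 mice (fitted log2 difference -4.93 ± 0.36, limma adjusted p = 8.23e-06). Serpinb6e, its neighbour in the family, was at 7.41, 6.42, 6.82 and 6.36 and then at 3.39, 3.9, 2.53 and 3.78 (-3.35 ± 0.35, adjusted p = 0.00024). Serpina3b fell 10.8-fold, from 11.52, 11.26, 11.52 and 11.09 to 7.96, 8.56, 7.32 and 7.85 (adjusted p = 8.15e-06), the highest starting level of the 3. Serpina3j fell by 2.29 (adjusted p = 0.00387) and Serpinb6c by 1.29 (adjusted p = 0.0142), the latter not without Cpd6 mouse 1 or 3 or vehicle mouse 3 (adjusted p up to 0.073). The family did not move as a whole. Of 25 measured members of clades A and B 5 fell and none rose, the median was -0.02, and Serpinb6a and Serpinb6b both differed by 0.15 (adjusted p = 0.716 and 0.864). Near-identical copies such as these may share probes, which was not tested.

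Several called genes of secreted or signalling proteins fell in the same mice. Apof, an apolipoprotein that regulates lipid transfer between lipoproteins, was at 5.59, 5.02, 5.3 and 4.41 with vehicle and 2.12, 2.71, 2.18 and 2.15 with Cpd6, where all 4 mice were under the filter level of 2.93. It was at least 4.44-fold lower against that level (fitted log2 difference -2.79, limma adjusted p = 3.68e-05). It was the 1 called of 9 apolipoproteins. Rnase2b, of the ribonuclease family first found in eosinophils, fell 5.29-fold from 12.24, 11.88, 12.49 and 11.94 to 9.65, 9.89, 9.16 and 10.23 (adjusted p = 5.53e-05). The 4 measured eosinophil markers had a list mean of 3.52 to 4.53 with vehicle and 3.59 to 4.1 with Cpd6 and none of them was called. Gabra4, a subunit of the GABA-A receptor, fell 5.59-fold, from 6.06, 5.52, 5.57 and 4.95 to 2.78, 2.95, 3.02 and 3.42 (adjusted p = 3.8e-05), and Adam3 3.58-fold (adjusted p = 0.000878).

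Hamp2, a hepcidin gene, and Mpo, the peroxidase of neutrophil granules, fell with more spread between mice. Hamp2 was at 8.62, 6.59, 7.08 and 7.15 and then at 3.47, 4.65, 5.03 and 4.34 (log2 -2.99 ± 0.57, limma adjusted p = 0.0351), and this call was lost without any 1 of the Cpd6 mice or without vehicle mouse 3 or 4 (adjusted p up to 0.12). Mpo was at 6.18, 6.49, 7.61 and 5.24 and then at 4.88, 3.96, 4.16 and 3.73 (-2.20 ± 0.38, adjusted p = 0.0203), lost without Cpd6 mouse 2, 3 or 4 or vehicle mouse 2 (adjusted p up to 0.0757). None of 3 neutrophil markers was called, and S100a8 and S100a9 lay at -0.46 and 0.45. Hamp2 is one of a pair of close copies in the mouse, which the array may not separate.

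The strongest increase was that of Ccl1, a chemokine that draws T cells and macrophages through CCR8. It was at 5.79, 5.51, 5.29 and 5.34 in the vehicle mice and at 8.31, 8.65, 8.89 and 8.97 in the Cpd6 mice. The lowest Cpd6 mouse stood well above the highest control, a 9.34-fold increase (log2 3.22 ± 0.20, limma adjusted p = 1.14e-06), and the fold change lay between 3.13 and 3.35 on the log2 scale without any single mouse. Cxcl16, the ligand of CXCR6, went from 8.79, 8.18, 8.28 and 8.27 to 9.08, 9.21, 9.02 and 9.03 (0.70 ± 0.12, adjusted p = 0.0203), and a second probeset rose by 0.81. Vehicle mouse 1 was the highest control for both probesets. Ccl2, which draws monocytes through CCR2, went from 9.47, 8.81, 9.25 and 8.71 to 9.98, 9.84, 10.09 and 10.02 (0.92 ± 0.18, adjusted p = 0.0358). Cxcl16 was lost without any Cpd6 mouse or without vehicle mouse 2 or 3 (adjusted p up to 0.104), and Ccl2 in every set except that without vehicle mouse 1 (up to 0.112).

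The other chemokines did not rise with these. Of 27 measured 3 were called higher and none lower, the median was -0.02, and 14 were below 0. The receptors Cxcr6 and Ccr2 differed by 0.62 ± 0.27 (limma adjusted p = 0.382) and -0.24 ± 0.30 (adjusted p = 0.836), and none of 14 chemokine receptors or of 31 cytokines and cytokine receptors was called. A pair of receptors that costimulate T cells were higher. Tnfrsf4 (OX40) went from 7.58, 7.32, 7.45 and 7.42 to 8.17, 7.94, 8.04 and 8.13 (0.63 ± 0.11, adjusted p = 0.0184) and Tnfrsf18 (GITR) from 9.24, 8.91, 9.22 and 8.89 to 9.78, 9.59, 9.41 and 9.75 (0.57 ± 0.11, adjusted p = 0.0353). Ctla4, which is found on the same regulatory T cells, was at 4.84 to 5.58 and then at 5.73 to 6.22 (0.79, adjusted p = 0.105). All 10 T cell markers lay above 0 with a median of 0.29 and none called, and their list mean was 6.83, 6.25, 6.35 and 6.18 in vehicle mice and 6.79, 6.74, 6.61 and 6.74 in Cpd6 mice, so vehicle mouse 1 matched the treated mice. The part of these cells in the calls of Tnfrsf4 and Tnfrsf18 was not tested. Both calls were lost without Cpd6 mouse 1 or 4 or vehicle mouse 2 or 3, and in further sets (adjusted p up to 0.081 and 0.129). A second, dimmer probeset of Tnfrsf18 was not called (0.65, adjusted p = 0.175).

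Beta-defensins, antimicrobial peptides of the epidermis, were higher for 3 of the genes. Defb14 was at 6.01, 5.59, 5.12 and 5.8 with vehicle and at 7.29, 6.99, 6.98 and 6.91 with Cpd6, a 2.65-fold increase (log2 1.41 ± 0.22, limma adjusted p = 0.011). It was, with Ccl1, the only higher probeset called again in all 8 sets with 1 mouse left out (adjusted p up to 0.0489). Defb1 went from 11.18, 10.51, 10.64 and 10.76 to 11.44, 11.65, 11.4 and 11.66 (0.76 ± 0.13, adjusted p = 0.0184) and Defb6 from 12.41, 11.68, 12.04 and 11.79 to 12.67, 12.7, 12.52 and 12.8 (0.69 ± 0.13, adjusted p = 0.0284). In both, vehicle mouse 1 was the highest control and came close to the lowest Cpd6 mouse. Defb1 was lost without Cpd6 mouse 2 or 4 or vehicle mouse 2 or 3 (adjusted p up to 0.0928), and Defb6 in every set except that without vehicle mouse 1 (up to 0.101). Defb15 stood just outside the threshold (0.99, adjusted p = 0.0502). Of 28 measured antimicrobial genes 3 rose and none fell, with a median of 0.19, and Camp (-0.12), Ltf (0.04) and Lcn2 (0.39) were not called. Outside that list Defa31, of the alpha-defensin family with its many copies, differed by 0.73 ± 0.14 (adjusted p = 0.0385), lost without any 1 Cpd6 mouse or without vehicle mouse 2 or 3 (adjusted p up to 0.162).

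Single genes such as Gsdma2, Btc and Ano1 rose, while no gene of the cornified envelope, kallikrein or keratinocyte lists was called. Gsdma2, a gasdermin, went from 4.58, 4.13, 4.72 and 4.4 to 6.16, 6.67, 5.49 and 6.89, a 3.59-fold increase (log2 1.84 ± 0.32, limma adjusted p = 0.0184). The call was lost without Cpd6 mouse 2 or 4 or vehicle mouse 2 or 3 (adjusted p up to 0.0708). Btc, a ligand of the EGF receptor, went from 9.33, 9.02, 8.78 and 8.52 to 9.91, 9.66, 9.63 and 9.67 (0.80 ± 0.14, adjusted p = 0.0208), lost without any 1 Cpd6 mouse or without vehicle mouse 3 (adjusted p up to 0.105). The chloride channel Ano1 rose by 0.70 (adjusted p = 0.0122), lost without Cpd6 mouse 4 or vehicle mouse 3 (up to 0.0687). No gene of 34 of the cornified envelope was called, yet 13 did not overlap between the groups (6.83% of all probesets did not) and the median was 0.33, with 23 above and 11 below 0. In Study 4 the median of this list was -0.17, with 2 genes called higher and 6 lower. Of all probesets, 4.56% were called higher there and 6.17% lower. The 13 were Lor (0.34), Sprr2e (-1.40) and late cornified envelope genes of the Lce1 cluster, which differed by 0.55 (Lce1m) to 1.25 (Lce1e), as in Lce1b, at 11.82, 11.37, 11.19 and 11.23 and then at 12.17, 12.22, 11.96 and 12.17 (adjusted p = 0.0658). The Lce1 genes are related members of a single cluster and may share probes, which was not tested. The 13 are therefore not a count of independent genes. Of 12 kallikrein genes, proteases of skin shedding, none was called and 9 lay above 0, among them Klk11 (0.72, adjusted p = 0.0541). Stress keratins did not differ by a detectable amount, with Krt17 at 0.00 and Krt6a at -0.34 (adjusted p = 0.997 and 0.561).

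For hair and pigment genes among the calls, vehicle mouse 1, which was low in hair genes, held varied shares of the difference. Tyr, the tyrosinase of melanin synthesis, was at 4.05, 5.62, 6.21 and 7.66 in vehicle mice and at 3.36, 3.26, 3.26 and 3.28 in Cpd6 mice (log2 -2.60 ± 0.51, limma adjusted p = 0.0385). Vehicle mouse 1 held 29.2% of the difference between the group means, and with the hair level as a covariate the difference was -1.11 (adjusted p = 0.571). Krt75, a keratin of the companion layer of the follicle, fell by 2.06 (9.45, 9.95, 10.82 and 11.44 against 9.02, 8.31, 8.44 and 7.65, adjusted p = 0.0317) with 53.2% of the difference in vehicle mouse 1, and the homeobox gene Msx1 fell by 1.49 (adjusted p = 0.0381) with 59.3%. Tyr and Msx1 were each lost in 6 of the 8 sets with 1 mouse left out and Krt75 in 5, in all 3 genes without Cpd6 mouse 2, 3 or 4 or vehicle mouse 3 (adjusted p up to 0.161, 0.162 and 0.142). Of 24 regulators of the hair cycle 1 fell, the WNT modulator Dkk3 (-0.61 ± 0.12, adjusted p = 0.0422), and the median of the list was -0.45. Vehicle mouse 1 held 64% of the Dkk3 difference, and the call was lost without Cpd6 mouse 1, 3 or 4 or vehicle mouse 2, 3 or 4 (up to 0.159). A second, dimmer probeset of Dkk3 was not called (-0.21, adjusted p = 0.787). Of 44 collagens and laminins 2 fell, Col14a1 by 1.14 (adjusted p = 0.0355) and Lamb1 by 0.61 (adjusted p = 0.0243), and both were lost without Cpd6 mouse 2 or 4 or vehicle mouse 2 or 3 among others (up to 0.159 and 0.12). Other probesets of Lamb1, with lower intensity, were not called (-0.47 and -0.15). In Col14a1 vehicle mouse 1 held 121% of the difference and in Lamb1 88.7%. With the hair covariate limma called neither (-1.30, adjusted p = 0.192, and -0.49, adjusted p = 0.437). For comparison, vehicle mouse 1 held 98.5% of the difference in Cyp2b23, 103% in Scd3, 110% in Serpinb6d and 90.5% in Ccl1. Each share rests on 1 mouse, and the part of hair growth in these genes was not tested.

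Markers of most other cells of the biopsy stayed close to their control level. None of 15 skeletal muscle, 6 adipocyte, 6 fibroblast or 10 endothelial markers was called, and their medians were 0.01, 0.10, 0.04 and 0.15. The adipocyte list mean was 10.4 to 10.91 with vehicle and 10.68 to 11.06 with Cpd6. The 4 keratinocyte markers measured, Krt15 and Krt10 among them, were not called and overlapped between the groups in 2, while their list mean was higher in every Cpd6 mouse (12.34 to 12.46 against 12.03 to 12.25). All 6 macrophage markers were below 0 with a median of -0.34 and none called, and their list mean ran from 7.64 to 8.92 with vehicle and from 7.61 to 8.37 with Cpd6. No gene was called among 17 of cell division (median -0.24) or 70 of the respiratory chain (0.02). The part of any of these cells in the called genes was not tested.

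The study had chosen a set of genes that follow gland atrophy, partly on these 8 mice, and 38 of them could be matched to tested probesets. The study chose them at the unadjusted threshold of its methods, and its own table marks every gene of the list as passing for Cpd6 in Study 2. Calls here use the adjusted p instead. By that rule 23 fell, 7 rose and 8 were not called, with a median of -1.0. The groups did not overlap in any of the 38, so a missing call reflects the different threshold and is no failure of the study's own. Since these samples served to choose the list, the counts are no independent evidence of its direction. The 8 that were not called ran from -1.06 (Slc6a19, limma adjusted p = 0.0728) to 0.95 (Psca, adjusted p = 0.114). Called genes outside that set include Serpinb6d, Akr1c21, Serpina3b, Serpinb6e, Acox3 and Defb14, described above.

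Cpd2 was given at the same dose and time in the same study, so the compounds can be set side by side, with the reservation that both are compared with the same 4 vehicle mice. Cpd2 against vehicle called 37 probesets (0.129%), 12 higher (0.0417%) and 25 lower (0.0868%). No probeset was called between Cpd6 and Cpd2 by limma (0%), with 2370 at an unadjusted p under 0.05 and a smallest adjusted p of 0.204. This does not show that they act alike. Over the 83 probesets that fell with Cpd6 the median difference from vehicle was -1.27 for Cpd6 and -0.88 for Cpd2, which was the smaller of the 2 in size in 79. In 45 of the 83 the 95% interval of Cpd6 minus Cpd2, taken for each alone, lay below 0 and in none above it. Over the 26 that rose the medians were 0.70 and 0.56, and in 11 the interval lay above 0. These probesets had been chosen with the Cpd6 mice, which favours a larger Cpd6 value, and only the adjusted test over all probesets is free of that.

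The size of the difference between the compounds varied from gene to gene. Ccl1 rose by 3.22 with Cpd6 and 3.35 with Cpd2 (difference -0.12, interval -0.54 to 0.30), Cyp2b23 differed by -4.10 and -3.82 from vehicle (difference -0.28, -0.68 to 0.12), and Akr1c21 by -3.49 and -3.97 (difference 0.48, -0.10 to 1.06). Cers5 (-1.13 and -1.06) and Gsdma2 (1.84 and 1.84) were also near each other, the latter with a wide interval of -0.67 to 0.68. Gabra4 differed from vehicle by -2.48 with Cpd6 and -1.08 with Cpd2, a difference of -1.40 (-1.87 to -0.94). Serpina3b followed with -3.43 and -2.08 (difference -1.34, -1.87 to -0.82), Cyp2j12 with -2.22 and -1.08 (-1.14, -1.70 to -0.58) and Defb14 with 1.41 and 0.52 (0.89, 0.41 to 1.37). Hair list means with Cpd2 were 4.33, 5.21, 3.99 and 7.42, in the range of both other groups.

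**Figure D3:**
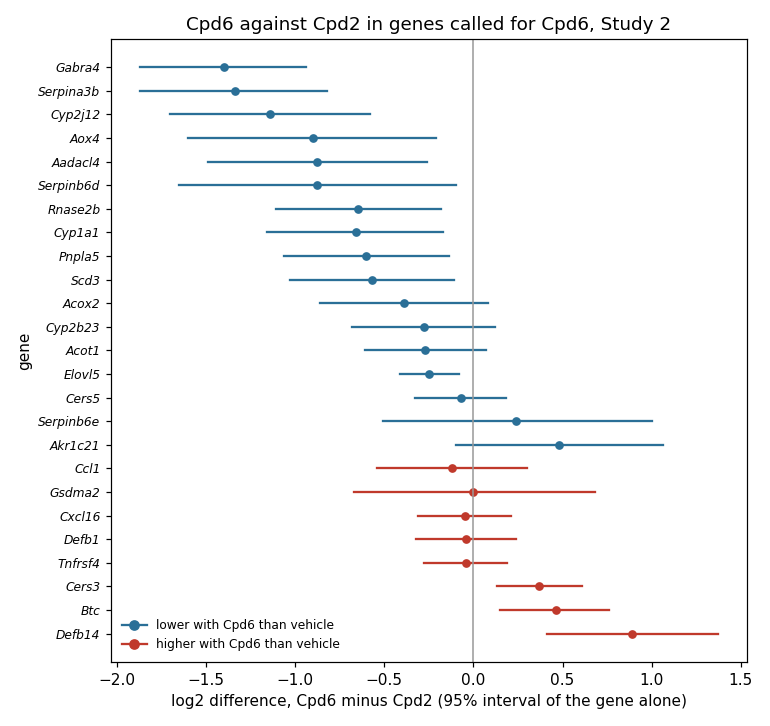
Log2 difference between the Cpd6 and Cpd2 mice of Study 2 in 25 genes called for Cpd6 against vehicle, with the 95% interval of each gene alone (4 mice per group). Gabra4, Serpina3b and Cyp2j12 lie farthest below 0 and Defb14 farthest above, and the intervals of Ccl1, Cyp2b23, Cers5 and Akr1c21 span 0.

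Study 4 gave a second look at Cpd6 with other mice and its own vehicle group, and shares no sample with Study 2. It called far more probesets, 3090 (10.7%), 1776 lower (6.17%) and 1314 higher (4.56%). Of the 83 probesets that fell in Study 2, 70 (84.3%) were also called lower in Study 4, against the 6.17% of all probesets, and all 83 lay below 0 there, with a median of -1.17. Of the 26 that rose, 6 (23.1%) were also called higher, against 4.56%, and 22 lay above 0, with a median of 0.31. Serpinb6d differed by -4.93 in Study 2 and -4.51 in Study 4, Cyp2b23 by -4.10 and -3.41, Scd3 by -2.37 and -2.11, Rnase2b by -2.40 and -2.51 and Ccl1 by 3.22 and 2.71, and each of these was called in both. Cyp1a1 was called in both at -2.01 and -1.17.

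Most of the genes that rose in Study 2 had a smaller estimate in Study 4. All had been chosen for passing the threshold in Study 2, which favours a larger Study 2 value. Defb14 (1.41 and -0.10), Cyp3a13 (1.13 and -0.17), Tnfrsf18 (0.57 and -0.26) and Calm5 (0.54 and -0.09) lay above 0 in Study 2 and below 0 in Study 4. Tnfrsf4 was at 0.63 and 0.03, Cers3 at 0.64 and 0.15 and Cyp2g1 at 1.94 and 0.55, none of them called in Study 4. Gsdma2 had the larger estimate in Study 4 (1.84 and 2.57). The 6 probesets called higher in both studies were those of Ccl1, Gsdma2, Ano1 (0.70 and 0.35) and Eppk1 (0.47 and 0.34), the second of Cxcl16 (0.81 and 0.55) and 1 that carries several gene names. The differences between the studies did not pass the test, which was fitted to all 48 arrays of the series. For Scd3 the SE of the difference was 0.69, with 0.22 and 0.25 in the fits of Study 2 and Study 4. The absence of calls therefore does not show that the effects were equal. Limma called no probeset for the Cpd6 effect in Study 2 minus that in Study 4 (0%), with 2223 at an unadjusted p under 0.05 and a smallest adjusted p of 0.0647, and gave Defb14 an adjusted p of 0.128, Tnfrsf18 0.127 and Cyp3a13 0.134.

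**Figure D4:**
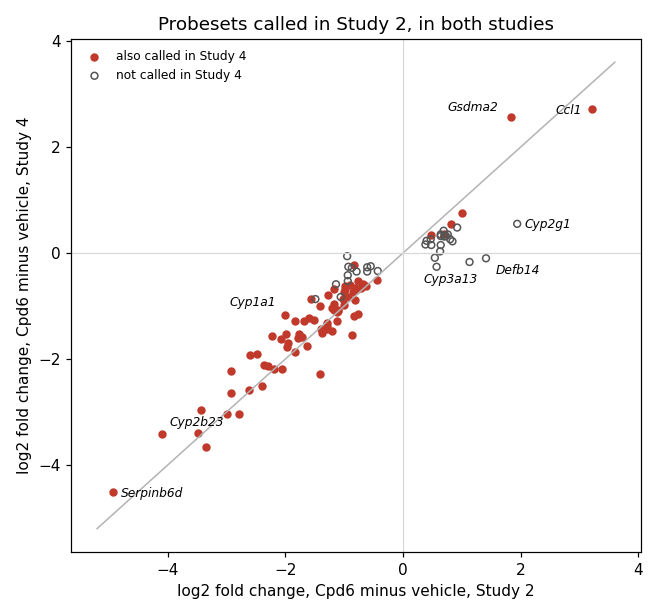
Log2 fold change of Cpd6 against vehicle for the 109 probesets called in Study 2 (horizontal axis) and for the same probesets in Study 4 (vertical axis), filled where Study 4 also called them, with the line of equal change. All 83 lower probesets lie below 0 in both studies, and 4 of the 26 higher ones (Defb14, Cyp3a13, Tnfrsf18 and Calm5) fall below 0 in Study 4.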

How the data were processed

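Total RNA of 1 skin biopsy per mouse was amplified with the NuGEN kit and hybridised by the authors to a custom mouse Affymetrix array. They deposited RMA-normalized linear intensity values for 38385 probesets on 48 arrays, per the submitters' processing notes, and the log2 of that deposited intensity was used here. RMA fits background, quantiles and probe effects over the arrays together, which can compress differences of dim probesets. The present-call filter of the methods was not used here, and probesets whose mean over the 48 arrays was under the 25th percentile (log2 2.93) were left out, which left 28789. Of these 19951 carried 1 gene symbol, 51 several and 8787 none in the annotation used here. Array medians in Study 2 lay between 27.2 and 28.5, and the number of arrays limits the precision.

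Limma 3.58.1 in R 4.3.3 was fitted to the 12 Study 2 arrays (vehicle, Cpd2, Cpd6) with an intensity trend, and p-values were adjusted by Benjamini-Hochberg over all probesets. Study 4 was fitted in the same way to its own 12 arrays (vehicle, Cpd6, Cpd18). The procedure was tested on simulated data. Figures were drawn with matplotlib 3.10.9. The labels number the mice but name no cage, litter or date, so p-values measure the spread between these mice, which may in part be technical. Same-numbered vehicle and Cpd6 mice were compared to see whether numbers pair them.

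The genes named were those that the paper discusses, up to 12 higher and 16 lower by size, and up to 4 called members of each of 56 lists, or 2 by level where none was called. Further genes, among them those just outside the threshold, were named after their values were seen. A gene with several probesets is given by the one with the highest mean. The comparison and the lists were chosen with earlier results of these data known. Alternatives were other filters, scalings, array weights, sets of arrays, a pseudocount of 16, the replicate number as a block and each mouse left out. A further one was a t-test in place of the methods' ANOVA, at an unadjusted p of 0.01 with a 1.2-fold change or after adjustment. The hair list level as a covariate was added after seeing the data.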

Additional observations from a re-analysis of the deposited data

Results flagged for a closer look

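In 8 of 216 groups of 4 mice, over 108 named genes, 1 mouse stood apart by Dixon's test, where chance alone gives about 1 in 20 groups (10.8). Vehicle mouse 1 was apart for Krt25, at 5.59 against 11.73 to 12.98 in the other vehicle mice, and for Cxcl16, at 8.79 against 8.18 to 8.28. Vehicle mouse 4 was apart for the collagen gene Col3a1, at 12.17 against 12.53 to 12.58. Cpd6 mouse 1 was apart for Btc, at 9.91 against 9.63 to 9.67, and for the hair homeobox gene Hoxc13, at 7.13 against 7.53 to 7.59. Cpd6 mouse 2 was apart for Apof, at 2.71 against 2.12 to 2.18, and for Dkk3, at 8.43 against 8.01 to 8.07. Cpd6 mouse 3 was apart for Krt25, at 9.04 against 4.29 to 4.96.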

How the results depend on the processing

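Cpd6 against vehicle called 109 probesets, 26 higher and 83 lower. Between 100 and 118 were called with no filter, a filter at the 50th percentile, equal array medians, quantile normalization or a pseudocount, and 84 from the 8 arrays alone. Array weights gave 1081 (483 higher, 598 lower), all 48 arrays in 1 fit 231 (100 and 131), no intensity trend 69 (10 and 59), and the hair level as a covariate 33 (1 and 32). A t-test in place of the methods' ANOVA gave 3 after adjustment (2 and 1) and 728 at the methods' unadjusted threshold (434 and 294). Without 1 mouse the counts ran from 39 (vehicle mouse 3) to 598 (vehicle mouse 1), with 2 to 227 higher and 37 to 371 lower. Cpd6 against Cpd2 called none, except 2 with all 48 arrays, 481 at the methods' threshold and 1 with the hair covariate. Without any 1 mouse it called 0. Of the Study 2 calls 76 were also called the same way in Study 4, 530 with array weights and 38 to 245 without 1 mouse. The difference between the studies called none, except 14 with the filter at the 50th percentile, 548 with array weights and 18 without vehicle mouse 1 (0 to 18 over the mice). The causes were not tested. None of the 47 named genes that were called changed sign under any of these alternatives, and 22 of the 61 not called did under at least 1, among them Krt25 (0.51 with the hair covariate).

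Same-numbered deviations correlated at 0.13, -0.12, 0.19 and 0.01, and those with different numbers at -0.24 to 0.09. The 4 same-numbered pairs are too few to tell whether the numbers pair the mice. With the replicate number as a block 80 probesets were called, 6 higher and 74 lower, and 0 between Cpd6 and Cpd2.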

Other observations

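Circadian clock genes were tested as a list that no comparison above uses. None of 16 was called by limma in Study 2, and 15 lay above 0, with a median of 0.17. The list mean was 8.18, 8.19, 8.03 and 7.75 in vehicle mice and 8.11, 8.31, 8.13 and 8.25 in Cpd6 mice, so the groups overlapped. In Study 4, with other mice, 7 of the 16 were called higher and none lower, with a median of 0.23. Of all probesets, 4.56% were called higher there and 6.17% lower. Among the 7 was Per1, a repressor of the clock, which differed by 0.75 (adjusted p = 0.00155) against 0.26 (adjusted p = 0.654) in Study 2. The hour of sampling was not given in the sources used here.

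Of the called probesets without a gene name, the best measured one fell from 7.57, 7.48, 7.93 and 7.58 to 6.45, 6.51, 6.37 and 6.37 (log2 -1.21, limma adjusted p = 0.00024), and the one with the largest increase rose from 3.89, 3.66, 3.83 and 3.97 to 4.76, 4.56, 4.74 and 4.64 (0.84, adjusted p = 0.0236). Limma called the first also in Study 4 (-1.04, adjusted p = 0.00114) and not the second (0.22, adjusted p = 0.338). The call of the second was lost without any 1 Cpd6 mouse or without vehicle mouse 2 or 3 (adjusted p up to 0.104).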
